A study of Mus musculus with 8 samples.

Results

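The genes described here are 8 cytosolic heat shock protein genes of the mouse testis, picked by name from the 54532 genes of the deposited expression table. There were 3 testis forms, Hspa2, Hspa1l and Hspa4l, and 5 general forms, Hspa8, Hspa4, Hsph1, Hsp90aa1 and Hsp90ab1. RNA was sequenced from whole testes of 8 mice on a C57BL/6J background, with 1 library per mouse. The 4 Sync-Spdya fl/fl mice carried floxed Spdya alleles without Cre and served as controls. The 4 Sync-Spdya cKO mice were Spdya fl/fl;Ddx4-CreERT2, so that tamoxifen removes exon 2 of Spdya, which encodes an activator of CDK2, in germ cells, and the somatic cells of the testis keep the gene. All mice of both groups had spermatogenesis synchronized with an inhibitor of retinoic acid (RA) synthesis given to neonates and a later injection of RA, and all received tamoxifen, on days RA7.5 and RA8.5 by the labels. Testes were collected 11.5 days after the RA injection, when most germ cells are in mid-late pachynema. The controls lacked Cre, so the deletion and the presence of the Cre cannot be told apart. The comparison asks whether the abundance of these chaperone transcripts differed once Spdya had been deleted in pachytene cells.

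Cytosolic Hsp70 proteins bind and release unfolded segments of client proteins in an ATP-driven cycle, Hsp110 proteins exchange the nucleotide of Hsp70, and Hsp90 receives clients from Hsp70 and brings them to their active state. The testis has dedicated forms of these proteins. Hspa2 is made in meiotic spermatocytes, is found along the synaptonemal complex and is needed for CDK1 activity and for spermatocytes to leave prophase I. Hspa1l is a germ cell Hsp70 of spermatids, and Hspa4l is an Hsp110 form that is abundant in germ cells. Hspa8 is the constitutive Hsp70 of all cells, Hspa4 and Hsph1 are the widely expressed Hsp110 forms, and Hsp90aa1 and Hsp90ab1 encode the 2 cytosolic Hsp90 proteins, of which the first is strongly expressed in male germ cells. Stress-inducible members are switched on by heat shock factors, which bind inverted repeats of GAA and TTC.

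The start regions of Hspa2, Hspa1l and Hsph1 are shown because they set the testis forms beside a general form with heat shock elements, and that of Hspa1a, the classical stress-inducible Hsp70, because it lies 546 bases from Hspa1l and points away from it. RefSeq promoter entries on GRCm38.p6 were found for 5 of the 8 genes (Hspa2, Hspa1l, Hspa4l, Hspa4 and Hsph1), and not for Hspa8, Hsp90aa1 and Hsp90ab1. Each line gives 250 bases before to 30 bases after the annotated start, on the strand of the gene. Capitals mark either a heat shock element pair, GAANNTTC or TTCNNGAA, or a CCAAT box, CCAAT or ATTGG, so that both strands are covered. The 2 motifs do not overlap in these windows.
Hspa2, chr12:76404120-76404399, + strand: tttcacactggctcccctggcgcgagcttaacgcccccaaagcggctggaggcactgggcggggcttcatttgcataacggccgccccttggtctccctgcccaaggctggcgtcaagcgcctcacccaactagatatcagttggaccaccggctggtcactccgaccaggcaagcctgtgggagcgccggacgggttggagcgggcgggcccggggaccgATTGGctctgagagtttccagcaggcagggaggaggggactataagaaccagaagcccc
Hspa1l, chr17:34972453-34972732, + strand: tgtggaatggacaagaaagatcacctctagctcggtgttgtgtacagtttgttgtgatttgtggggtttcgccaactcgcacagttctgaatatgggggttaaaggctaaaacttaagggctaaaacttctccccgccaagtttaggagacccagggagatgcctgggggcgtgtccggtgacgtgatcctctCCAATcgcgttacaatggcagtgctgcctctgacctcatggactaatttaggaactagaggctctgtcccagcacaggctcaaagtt
Hsph1, chr5:149636286-149636565, - strand: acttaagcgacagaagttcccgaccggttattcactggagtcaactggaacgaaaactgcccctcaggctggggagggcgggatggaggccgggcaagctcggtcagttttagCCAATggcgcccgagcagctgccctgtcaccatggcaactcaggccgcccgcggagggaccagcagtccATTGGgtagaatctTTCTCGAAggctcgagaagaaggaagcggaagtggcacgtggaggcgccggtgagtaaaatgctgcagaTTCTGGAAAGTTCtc
Hspa1a, chr17:34972127-34972406, - strand: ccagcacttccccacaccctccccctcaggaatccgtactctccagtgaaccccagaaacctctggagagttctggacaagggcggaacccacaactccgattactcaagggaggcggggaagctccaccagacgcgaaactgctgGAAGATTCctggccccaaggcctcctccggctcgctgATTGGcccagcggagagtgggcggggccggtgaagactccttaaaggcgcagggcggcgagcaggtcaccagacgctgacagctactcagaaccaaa
Of the 5 genes with an entry, 1 (Hsph1) held a heat shock element pair in this window, whereas 14.2% of all 32851 promoter entries held one. The Hsph1 start above had 3 matches, TTCTCGAA beginning 54 bases before the start, and TTCTGGAA and GAAAGTTC, which share 3 bases, beginning at base 16 and base 21 after it. A further RefSeq start of Hsph1 lay nearby and shared the first of these. Hspa1a and its near-identical copy Hspa1b, equal at 276 of the 280 bases, each had GAAGATTC beginning 104 bases before the start. A CCAAT box was present in Hspa2, where it began 29 bases before the start, in Hspa1l and in Hsph1, and in 36.1% of all entries. The RefSeq starts of Hspa2 and Hsph1 lie inside the gene spans used for expression, which begin further upstream. The Hspa2 box thus lies within that span. A match of letters is not a measurement of binding.

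The libraries held 13978342 to 19583091 fragments on genes, recovered from the deposited values. Expression is given as FPKM, fragments per kilobase of gene length after scaling by library size, so that levels of a gene can be compared between mice. Comparisons between genes, as in orders of level, shares and ratios, also rest on the deposited gene length. Whether that length is the one of the transcripts present was not tested. Differences were tested with limma on log2(FPKM + 0.1) over the 12141 protein-coding genes whose mean FPKM exceeded 1 in each group, and a gene was called at a Benjamini-Hochberg adjusted p below 0.05 with an absolute log2 fold change above 1. By this rule 2 genes, 0.0165% of those tested, were called. The paper, which used DESeq2 at the same thresholds, reports more differentially expressed genes. A lack of calls here therefore holds for this test only. Spdya itself had 20.8, 21.0, 23.8 and 19.7 FPKM in the control libraries and 30.5, 22.2, 26.1 and 17.7 FPKM in the cKO libraries, and a value over the whole gene does not separate RNA with and without exon 2, so it does not check the labels. The library of control replicate 1 stood apart, with a mitochondrial share of 0.464% of fragments against 2.20% to 3.74% in the other 7. Its Pearson correlation with the others over tested genes was 0.925 to 0.958, against 0.954 to 0.992 among those 7, and values of the 7 tested heat shock protein genes that turn on it are given with and without it. Of the defining markers, the synaptonemal complex genes Sycp1 and Sycp3 lay between 90.6 and 181.6 FPKM in every library, and the pachytene histone Hist1h1t was below 1 FPKM in all. The paper reports that most pachytene cells of both groups stained for the H1t protein slightly earlier, so this low RNA value is not a reading of their stage. The spermatid genes Prm1, Prm2, Tnp1, Tnp2 and Acrv1 were at 0 in at least 1 library each. Spaca1, the other spermatid marker, had 1.92 to 8.99 FPKM and was highest in control replicate 1.

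None of the 8 genes was called. Hspa1l did not pass the filter on low values, and the other 7 had adjusted p-values between 0.341 and 0.783 (limma). Among these 7, the log2 fold change was below 0 in 5 (Hspa2, Hspa4l, Hspa4, Hsph1 and Hsp90aa1) and above 0 in 2 (Hspa8 and Hsp90ab1), while it was below 0 in 48% of all tested genes. Their median log2 fold change was -0.23, beside 0.01 over all tested genes. Of the 7, 1 gene (Hsph1) had an unadjusted p below 0.05, a count near the background, since 10.9% of all tested genes did, 5% with lower and 5.89% with higher cKO values. The cKO and control values did not overlap for 2 of the 7, Hsph1 with lower and Hsp90ab1 with higher cKO values, and for 6.24% of all tested genes, 2.59% lower and 3.64% higher. The separation of Hsp90ab1 holds for FPKM as deposited and is lost after rescaling to TPM. In bulk RNA, fewer cells of a type and less RNA per cell cannot be told apart.

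**Figure D1:**
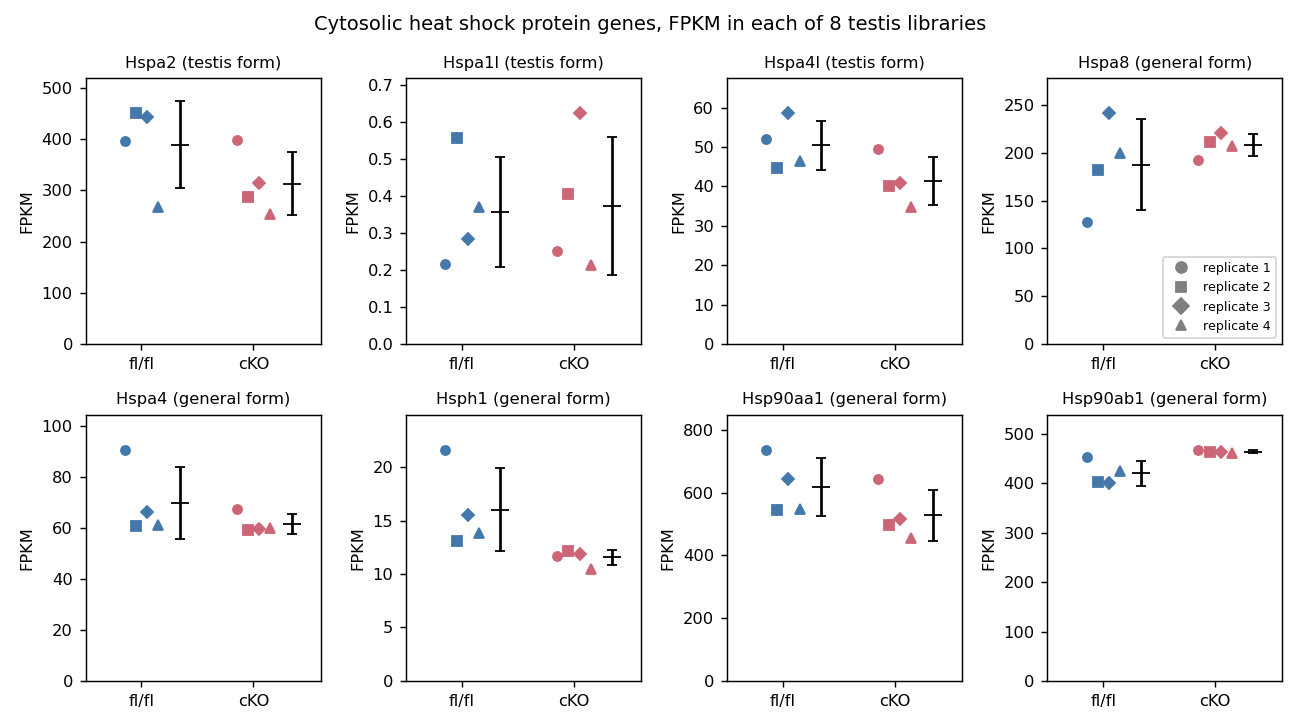
FPKM (vertical axes, each starting at 0) of the 8 heat shock protein genes in the 4 fl/fl control and 4 cKO testis libraries, 1 symbol per mouse, with the mean and SD of each group in black. On this scale the groups do not overlap for Hsph1 and Hsp90ab1, and Hspa1l lies below 1 FPKM in every library.

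Hspa2 (ENSMUSG00000059970, chromosome 12, 76404176 to 76406938 on the + strand of GRCm38) was the third most abundant of the 8 and ranked 34 among the 12141 tested genes by mean FPKM. It had 395.6, 450.8, 443.5 and 267.4 FPKM in control replicates 1 to 4 and 398.6, 287.6, 314.3 and 253.3 FPKM in cKO replicates 1 to 4. Control replicate 4 lay among the lower cKO libraries and cKO replicate 1 among the higher controls, so the groups overlapped. The mean was 389.3 ± 84.9 FPKM (SD, n = 4) in controls and 313.4 ± 62.0 FPKM (SD, n = 4) in cKO testes, or 80.5% of the control mean. The log2 fold change was -0.30 (standard error, SE, 0.21, 95% interval -0.78 to 0.17, limma adjusted p = 0.664). It was -0.47 without control replicate 4 and -0.21 without cKO replicate 4. At 11372 to 21612 fragments per library, counting error is small beside the differences between mice. The interval leaves room for levels from well below those of the controls to slightly above them, so a difference was not detectable with these mice, and equal levels were not shown.

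Hspa1l (ENSMUSG00000007033, chromosome 17, 34972703 to 34979285, + strand), the spermatid Hsp70, was barely detected. It had 0.216, 0.558, 0.285 and 0.370 FPKM in the controls and 0.250, 0.405, 0.624 and 0.214 FPKM in the cKO libraries. These values rest on 7 to 26 fragments per library. The exact Poisson 95% interval, which covers counting error only, was 0.0869 to 0.445 FPKM for the 7 fragments and 0.407 to 0.914 FPKM for the 26. Both groups spanned almost the same range. The spermatid markers Prm1, Prm2, Tnp1, Tnp2 and Acrv1 were at most 0.580 FPKM in any library, and Spaca1, an acrosomal gene, had 1.92 to 8.99 FPKM. When all genes were fitted without a filter, its log2 fold change was 0.02 (SE 0.32, limma adjusted p = 0.985). The antisense gene Gm10501 overlaps Hspa1l and had 0.139 to 0.313 FPKM. Whether strand was used in counting is not given in the sources used here, so part of either value could belong to the other gene.

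Hspa8 (ENSMUSG00000015656, chromosome 9, 40800984 to 40810087, + strand), the constitutive Hsp70, had 127.4, 182.1, 241.4 and 199.4 FPKM in the controls and 192.8, 211.5, 220.2 and 206.6 FPKM in the cKO libraries. The cKO values all lay inside the control range, which was wide because of the low value in control replicate 1. The means were 187.6 ± 47.2 and 207.8 ± 11.5 FPKM (SD, n = 4 each). On the log2 scale the difference was 0.18 (SE 0.19, 95% interval -0.23 to 0.60, limma adjusted p = 0.783). Leaving out control replicate 1 gave 0.01, and leaving out control replicate 3 gave 0.32. The small nucleolar RNA genes Snord14c, Snord14d and Snord14e lie inside Hspa8 and were listed at 0 in every library.

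Among the cytosolic Hsp70 genes, Hspa2 had the highest FPKM in every library. Its place above Hspa8 and the shares below rest on the deposited gene lengths, 2644 bases for Hspa2 and 4301 for Hspa8. Hspa2 made up 74.1%, 69.6%, 63.6% and 56.1% of the summed FPKM of Hspa2, Hspa8, Hspa1l, Hspa1a and Hspa1b in the controls and 66.2%, 56.3%, 57.5% and 53.8% in the cKO libraries. The mean share was 65.9% ± 7.84 in controls and 58.5% ± 5.41 in cKO testes (SD, n = 4 each), with overlapping groups. Hspa8 supplied most of the rest, 23.9% to 41.8% in controls and 32.1% to 43.9% in cKO testes. The stress-inducible Hspa1a and Hspa1b, whose near-identical sequences make the split of their reads uncertain, stood at 3.03 to 5.76 FPKM and 6.38 to 8.11 FPKM over all 8 libraries. Their log2 fold changes were -0.03 (SE 0.20) and -0.10 (SE 0.11). Without control replicate 1 that of Hspa1a was -0.16, and after rescaling to TPM it was 0.05.

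The 3 Hsp110 genes each had a lower mean in the cKO testes, and only Hsph1 had groups that did not overlap. Hspa4l (ENSMUSG00000025757, chromosome 3, 40744495 to 40796103, + strand), the germ cell form, had 52.1, 44.7, 58.6 and 46.4 FPKM in the controls and 49.5, 40.2, 40.9 and 34.7 FPKM in the cKO libraries. Of the 4 cKO values, 3 lay below every control, and cKO replicate 1 lay in the middle of the controls. The means were 50.5 ± 6.28 and 41.3 ± 6.14 FPKM (SD, n = 4 each). The log2 fold change was -0.29 (SE 0.13, 95% interval -0.59 to 0.01, limma adjusted p = 0.480).

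Hspa4 (ENSMUSG00000020361, chromosome 11, 53259814 to 53300457, - strand), its widely expressed counterpart, had 90.5, 60.6, 66.3 and 61.2 FPKM in the controls and 67.3, 59.1, 59.4 and 59.7 FPKM in the cKO libraries. Replicate 1 was the highest library of either group, and the remaining 6 libraries lay close together. On the log2 scale the difference was -0.16 (SE 0.14, 95% interval -0.48 to 0.15, limma adjusted p = 0.737), and -0.03 without control replicate 1.

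Hsph1 (ENSMUSG00000029657, chromosome 5, 149614287 to 149636376, - strand), the inducible Hsp110, had 21.6, 13.1, 15.5 and 13.8 FPKM in the controls and 11.7, 12.1, 11.9 and 10.5 FPKM in the cKO libraries. Every cKO library lay below every control. The means were 16.0 ± 3.87 and 11.6 ± 0.732 FPKM (SD, n = 4 each). The log2 fold change was -0.44 (SE 0.15, 95% interval -0.78 to -0.10), and it did not pass adjustment over all tested genes (limma adjusted p = 0.341). Without control replicate 1 it was -0.29 with the groups still apart, when 13.3% of all tested genes had groups that did not overlap. As a share of the summed FPKM of the 3 Hsp110 genes, Hsph1 stood at 11.0% to 13.2% in controls and 9.09% to 10.9% in cKO testes. The groups of this share lay close, with 11.03% the lowest control and 10.89% the highest cKO value. It is formed from the same Hsph1 values, so it is not a second observation, and no background was computed for such shares.

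The 2 Hsp90 genes were the most abundant of the 8. Hsp90aa1 (ENSMUSG00000021270, chromosome 12, 110690605 to 110702728, - strand) had 736.3, 543.0, 643.9 and 547.5 FPKM in the controls and 643.8, 496.0, 516.1 and 454.0 FPKM in the cKO libraries. Here too 3 cKO values lay below every control, and cKO replicate 1 lay level with the second highest control. On the log2 scale the difference was -0.23 (SE 0.19, 95% interval -0.64 to 0.19, limma adjusted p = 0.715), and -0.14 without control replicate 1.

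Hsp90ab1 (ENSMUSG00000023944, chromosome 17, 45567775 to 45573271, - strand), the constitutive form, had 453.6, 403.3, 400.0 and 424.5 FPKM in the controls and 468.2, 464.3, 463.1 and 461.1 FPKM in the cKO libraries. In FPKM as deposited, all 4 cKO values were above all controls and lay close together. The means were 420.4 ± 24.7 and 464.2 ± 2.98 FPKM (SD, n = 4 each). The log2 fold change was 0.14 (SE 0.14, 95% interval -0.16 to 0.45, limma adjusted p = 0.767), and 0.22 when FPKM was rescaled to TPM. Rescaling divides by the summed FPKM of all genes, 260039 in control replicate 4 and 280745 to 296307 in the cKO libraries. Control replicate 4 then lay among the cKO values, so the groups overlapped on that scale. The SE of 0.14 exceeds what the spread of the 8 FPKM values alone would give. Limma draws the variance of each gene towards that of genes of like abundance.

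**Figure D2:**
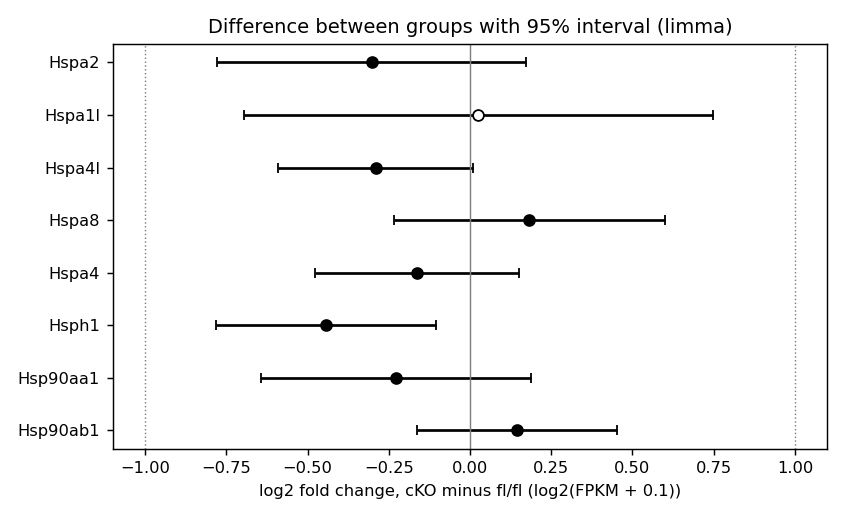
Log2 fold change (cKO minus fl/fl, horizontal axis) of each of the 8 genes with its 95% interval from limma, with 4 libraries per group. Filled points are genes that passed the filter, the open point (Hspa1l) comes from the fit without a filter, and dotted lines mark the fold change of the call rule. The interval of Hsph1, -0.78 to -0.10, lies below 0 and the other 7 include 0.

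By mean FPKM over the 8 libraries, the order of levels was Hsp90aa1 (572.6), Hsp90ab1 (442.3), Hspa2 (351.4), Hspa8 (197.7), Hspa4 (65.5), Hspa4l (45.9), Hsph1 (13.8) and Hspa1l (0.365). From Hspa2 downwards each gene exceeded the next in FPKM in 8 of 8 libraries. By fragments, without division by gene length, Hspa4l exceeded Hspa4, and Hspa8 exceeded Hspa2 in some libraries. Hsp90aa1 exceeded Hsp90ab1 in 7 libraries, and the exception was cKO replicate 4. Hsp90ab1 exceeded Hspa2 in 6 libraries, in all 4 cKO testes and in 2 of the 4 controls, so the control levels of Hsp90ab1 and Hspa2 were not separated by their spread.

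Log2 ratios of FPKM within each library do not depend on the scaling of the library. They set the testis forms against their general counterparts, and Hsp90aa1 against Hsp90ab1, which are both general forms. The ratio of Hspa2 to Hspa8 was 1.63, 1.31, 0.88 and 0.42 in the controls and 1.05, 0.44, 0.51 and 0.29 in the cKO libraries. In FPKM Hspa2 was thus above Hspa8 in every library, 1.34-fold to 3.10-fold in controls and 1.23-fold to 2.07-fold in cKO testes. By fragments, without division by gene length, Hspa8 was the higher in control replicate 4 and cKO replicates 2 to 4. The mean log2 ratios were 1.06 ± 0.53 and 0.57 ± 0.33 (SD, n = 4 each), a difference of -0.49 that became -0.29 without control replicate 1 and -0.70 without control replicate 4.

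The ratio of Hspa4l to Hspa4 was -0.80, -0.44, -0.18 and -0.40 in the controls and -0.44, -0.56, -0.54 and -0.78 in the cKO libraries. In FPKM the testis form was the lower in every library, at 0.575 to 0.884 times Hspa4 in controls and 0.581 to 0.736 times in cKO testes. This order rests on the deposited gene lengths, 11792 bases for Hspa4l and 5528 for Hspa4. By fragments, without division by length, Hspa4l was the higher in every library. The difference of the mean log2 ratios, -0.13, was within 1 SD of either group, and became -0.24 without control replicate 1 and -0.04 without control replicate 3. Hspa1l stood at 0.00104 to 0.00306 times Hspa8 over all libraries, too few fragments for a comparison of its ratio.

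The ratio of Hsp90aa1 to Hsp90ab1 was 0.70, 0.43, 0.69 and 0.37 in the controls and 0.46, 0.10, 0.16 and -0.02 in the cKO libraries. Of the cKO values, 3 lay below every control, and cKO replicate 1 lay between the controls. The means were 0.55 ± 0.17 and 0.17 ± 0.21 (SD, n = 4 each), a difference of -0.37 that stayed between -0.47 and -0.31 when any 1 library was left out. As a share of the summed Hsp90 FPKM, Hsp90aa1 stood at 59.3% ± 2.88 in controls and 53.0% ± 3.53 in cKO testes. The summed Hsp90 FPKM itself was 946.2 to 1189.9 in controls and 915.1 to 1112.0 in cKO testes.

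**Figure D3:**
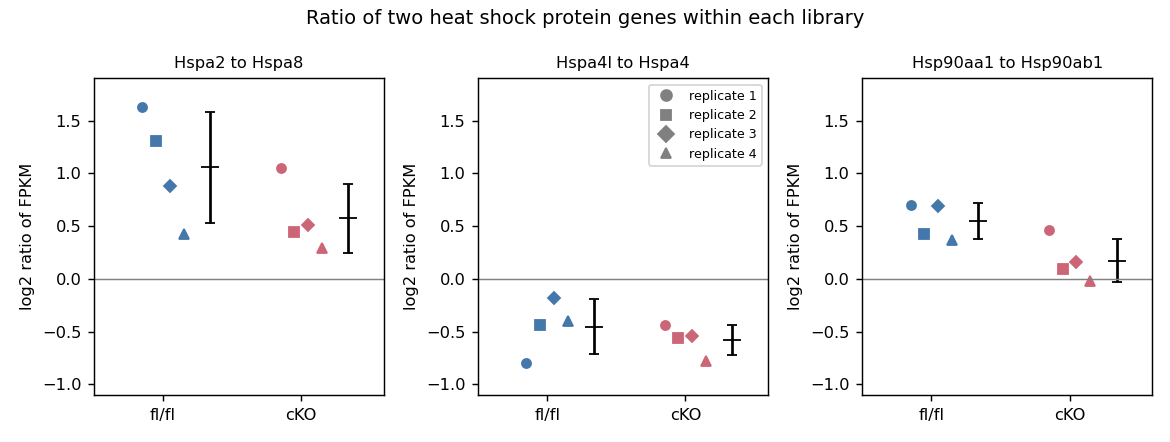
Log2 ratio of FPKM within each library (vertical axes) for 3 pairs of heat shock protein genes, 1 symbol per mouse, with the mean and SD of each group in black and a grey line at equal levels. All 3 pairs overlap between fl/fl and cKO, and the Hsp90aa1 to Hsp90ab1 ratio of cKO replicate 1 (0.46) is the cKO value that falls inside the control range.

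Several of the genes shared their lowest or highest library. Of the 7 genes, 5 had their lowest cKO value in cKO replicate 4 (Hspa2, Hspa4l, Hsp90aa1, Hsp90ab1 and Hsph1), and 4 had their highest control value in control replicate 1 (Hspa4, Hsp90aa1, Hsp90ab1 and Hsph1). The summed FPKM of all genes was highest in control replicate 1 (359315) and, among cKO libraries, lowest in cKO replicate 4 (280745). As a share of that sum, control replicate 1 was the lowest control for Hsp90ab1 and not the highest for Hsp90aa1. On that scale cKO replicate 4 was the highest cKO library for Hsp90ab1, so these shared extremes depend in part on the scaling. Over the 8 libraries, which share tissue and processing, log2 levels of Hspa4l and Hsp90aa1 correlated at r = 0.89 (Pearson) and rho = 0.98 (Spearman), and those of Hspa2 with Hspa4l at r = 0.75 and with Hsp90aa1 at r = 0.71. Of the 12141 tested genes, 929 correlated with Hspa2 more strongly than Hspa4l did and 1199 more strongly than Hsp90aa1, so these values do not set the heat shock genes apart. The correlation of Hspa2 with Hspa4l stayed at 0.65 after each group's mean was subtracted. The correlation of Hspa4 with Hspa8, -0.82, rested on control replicate 1 and was 0.14 without it. These correlations describe 8 libraries and carry no test.

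**Figure D4:**
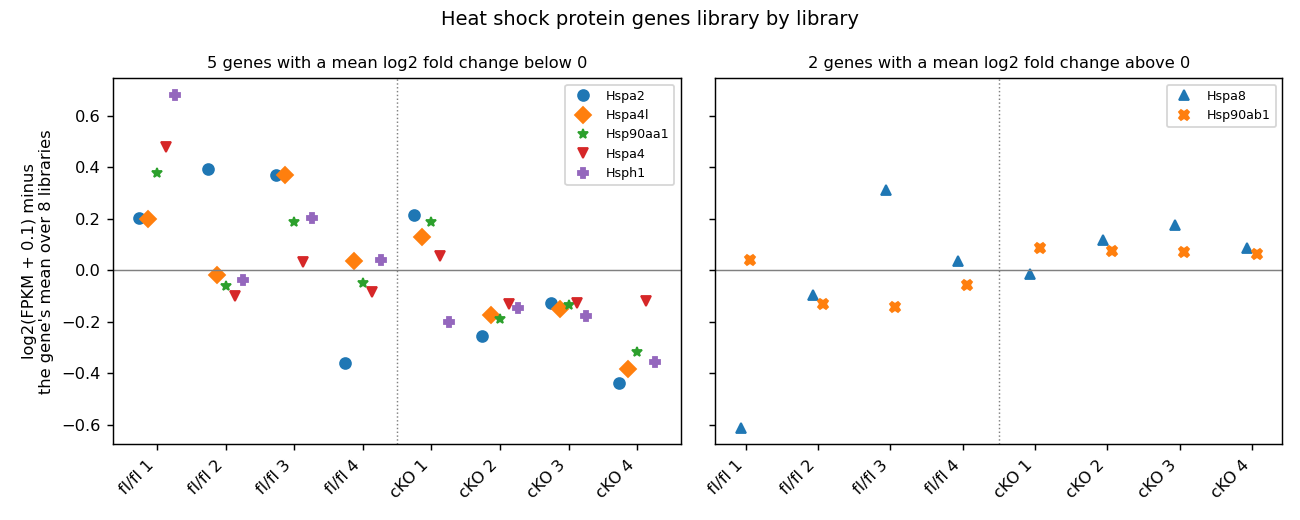
Log2(FPKM + 0.1) of each gene minus its own mean over the 8 libraries (vertical axis), by library, for the 5 genes with a negative and the 2 genes with a positive log2 fold change. Control replicate 1 is the high extreme of Hsph1 and Hspa4 and the low extreme of Hspa8, and cKO replicate 4 is the lowest library for Hspa2, Hspa4l, Hsp90aa1 and Hsph1.

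The 5 tested genes whose levels followed Hspa2 most closely over the 8 libraries were Spata24 (r = 0.987), Tuba3b (0.980), Lrwd1 (0.976), Kctd7 (0.976) and Ahdc1 (0.975), by Pearson correlation of log2 levels. Tuba3b encodes a tubulin of male germ cells. Spata24 and Hspa2 put the 8 libraries in the same order. The log2 fold changes of these genes ran from -0.23 (Ahdc1) to -0.17 (Spata24), all smaller in size than that of Hspa2, with adjusted p-values from 0.591 to 0.814 (limma).

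Markers of the cell types of the testis were summed per library. The 10 spermatocyte markers summed to 938.3 to 1359.6 FPKM in controls and 731.8 to 1140.0 FPKM in cKO testes, with control replicate 4 and cKO replicate 4 the lowest of their groups, as they were for Hspa2. These 2 libraries also had the lowest summed FPKM of all genes in their groups, 260039 and 280745. As a share of that sum, control replicate 1 was the lowest control for the spermatocyte markers, and cKO replicate 4 stayed the lowest cKO library. Of the spermatocyte markers, Ldhc, the germ cell lactate dehydrogenase, correlated with Hspa2 at r = 0.82, and 500 tested genes did so more strongly. It had 362.4 to 631.2 FPKM in controls and 247.8 to 388.1 FPKM in cKO testes, and its log2 fold change was -0.73 (SE 0.22, limma adjusted p = 0.287). Meiob, which encodes a meiotic recombination protein, differed in the other direction, from 13.7 to 18.5 FPKM in controls and from 19.6 to 38.5 FPKM in cKO testes.

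Most somatic markers had a higher mean in cKO testes, while Tagln, Rhox5, Insl3 and the globin gene Hba-a2 had a lower mean. The 4 peritubular markers summed to 43.9 to 74.1 FPKM in controls and 73.0 to 102.9 FPKM in cKO testes, the 5 Leydig markers to 15.6 to 33.2 and 25.2 to 41.0 FPKM, the 4 endothelial markers to 6.07 to 11.4 and 11.1 to 14.4 FPKM, and the 4 macrophage markers to 9.94 to 13.8 and 13.1 to 16.5 FPKM. The 7 Sertoli markers summed to 271.6 to 391.9 FPKM in controls and 311.4 to 378.9 FPKM in cKO testes. The 7 spermatogonial markers summed to 181.4 to 230.3 FPKM in controls and 219.1 to 230.2 FPKM in cKO testes. Of these 7, 5 had a log2 fold change above 0 and 2 below. The largest in size was that of Stra8, -1.46 (SE 0.44), against the direction of most of the list. Stra8 had 4.53 to 19.8 FPKM in controls and 2.03 to 4.70 FPKM in cKO testes, with overlapping groups. The 4 globin genes summed to 10.4 to 39.1 and 21.5 to 46.1 FPKM. The 6 spermatid markers summed to 2.52 to 9.56 and 4.39 to 6.31 FPKM. No somatic marker was at 0 in any library, and the summed level of every list overlapped between the groups. None of these markers had an adjusted p below 0.05. Their part in the values of Hspa2, Hsph1 and Hsp90ab1 was not tested.

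The wider chaperone system was described with 70 genes in 6 lists, of which 63 were tested. None was called in either direction, beside 0.0165% of all tested genes. On the log2 scale the difference was below 0 in 43 and above 0 in 20, with a median of -0.08, beside 0.01 over all tested genes. This split rests on the scaling and on control replicate 1. It was 31 below and 32 above 0 after rescaling to TPM, with medians of 0.00 for the lists and 0.09 for all tested genes, and 30 below and 33 above 0 without control replicate 1, with medians of 0.01 and 0.03. At an unadjusted p below 0.05 there were 6 genes of the 63, beside 10.9% of all tested genes, 2 higher and 4 lower in cKO testes, and the smallest adjusted p was 0.178 (limma). The groups did not overlap for 2 of the 63, Cdc37 and Cct6b, beside 6.24% of all tested genes. Without control replicate 1 they did not overlap for 5 of the 63, beside 13.3% of all tested genes.

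Of the 11 other Hsp70 and Hsp90 family genes none had an unadjusted p below 0.05. They include Hspa5, the Hsp70 of the endoplasmic reticulum (113 to 132 FPKM in cKO testes, log2 fold change -0.17), Hspa9, that of the mitochondrion (-0.11), the ribosome-bound Hspa14 (-0.07), and the Hsp90 forms of the endoplasmic reticulum, Hsp90b1 (-0.11), and mitochondrion, Trap1 (-0.07). Their SE was 0.10 to 0.17. Without control replicate 1 these values were -0.03 for Hspa5, -0.03 for Hspa9, 0.06 for Hspa14, -0.04 for Hsp90b1 and -0.08 for Trap1, and after rescaling to TPM Hspa14 stood at 0.00 and Trap1 at 0.01, so the sign of Hspa14 and Trap1 is not settled. Of the 7 heat shock factors and partners, 6 were tested. Hsf1, the main stress-responsive factor, had 9.53 to 13.2 FPKM in controls and 10.6 to 13.0 FPKM in cKO testes, Hsf2 had 4.10 to 5.72 and 4.27 to 4.64 FPKM, and Hsf5, a factor of spermatocytes, had 28.6 to 44.2 and 28.4 to 38.2 FPKM. Their log2 fold changes were 0.07, -0.05 and -0.18, with standard errors of 0.13 to 0.15, and -0.01, 0.04 and -0.30 without control replicate 1. After rescaling to TPM that of Hsf2 was 0.03.

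Of the 21 Hsp90 co-chaperones, 6 had a log2 fold change above 0 and 15 below. Stip1, which hands clients from Hsp70 to Hsp90, stood at 0.03, the Hsp70 partner St13 at -0.12, the ATPase activator Ahsa1 at 0.08, the p23 gene Ptges3 at -0.14, the immunophilin Fkbp4 at -0.17 and the meiotic immunophilin Fkbp6 at 0.06. When control replicate 1 was left out, Fkbp4 stood at 0.01, St13 at -0.02, Ptges3 at -0.05, Stip1 at 0.01, Ahsa1 at 0.04 and Fkbp6 at 0.12. The kinase adaptor Cdc37 had 10.9 to 14.4 FPKM in controls and 14.4 to 15.2 FPKM in cKO testes, without overlap, and a log2 fold change of 0.18 (SE 0.10, limma adjusted p = 0.577). Of the 10 nucleotide exchange factors of Hsp70, none had an unadjusted p below 0.05. Bag6, which is needed for the stability of the Hspa2 protein, had 75.8 to 110.4 FPKM in controls and 92.6 to 102.5 FPKM in cKO testes (log2 fold change 0.04, SE 0.13), and Hspbp1 had 19.0 to 55.4 and 24.0 to 34.0 FPKM (-0.12, SE 0.27). The highest Hspbp1 value was that of control replicate 1, and without it the log2 fold change was 0.17.

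In the chaperonin list, Cct6b, the testis form of a subunit of the cytosolic CCT chaperonin, had 33.4, 21.9, 27.7 and 19.0 FPKM in the controls and 17.9, 15.1, 12.5 and 11.3 FPKM in the cKO libraries. Every cKO value lay below every control. Its log2 fold change was -0.83 (SE 0.20), and it did not pass adjustment (limma adjusted p = 0.178). Its general counterpart Cct6a, which the table does not class as protein-coding and which was therefore tested only with all biotypes, had 67.1 to 120.6 FPKM in controls and 67.4 to 79.0 FPKM in cKO testes and a log2 fold change of -0.22 (SE 0.18).

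Among the 10 small heat shock protein genes, 5 passed the filter. Hspb1, the inducible Hsp27, had 159.6, 95.7, 85.0 and 84.3 FPKM in the controls and 163.1, 125.6, 134.3 and 177.6 FPKM in the cKO libraries, with control replicate 1 inside the cKO range and the other controls below it. Its log2 fold change was 0.54 (SE 0.21, limma adjusted p = 0.413). Without control replicate 1 the groups did not overlap and the value was 0.75 (limma adjusted p = 0.0601). Hspb8, which was singled out after its values were seen, had 1.33 to 4.57 FPKM in controls and 4.21 to 9.97 FPKM in cKO testes, a log2 fold change of 1.40 (SE 0.36, limma adjusted p = 0.202). The remaining genes with an unadjusted p below 0.05, also named after their values were seen, were Hspb9 (-0.55), Hsbp1l1 (-0.55) and Ppid (-0.41). With control replicate 1 left out these stood at -0.75, -0.55 and -0.24.

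**Figure D5:**
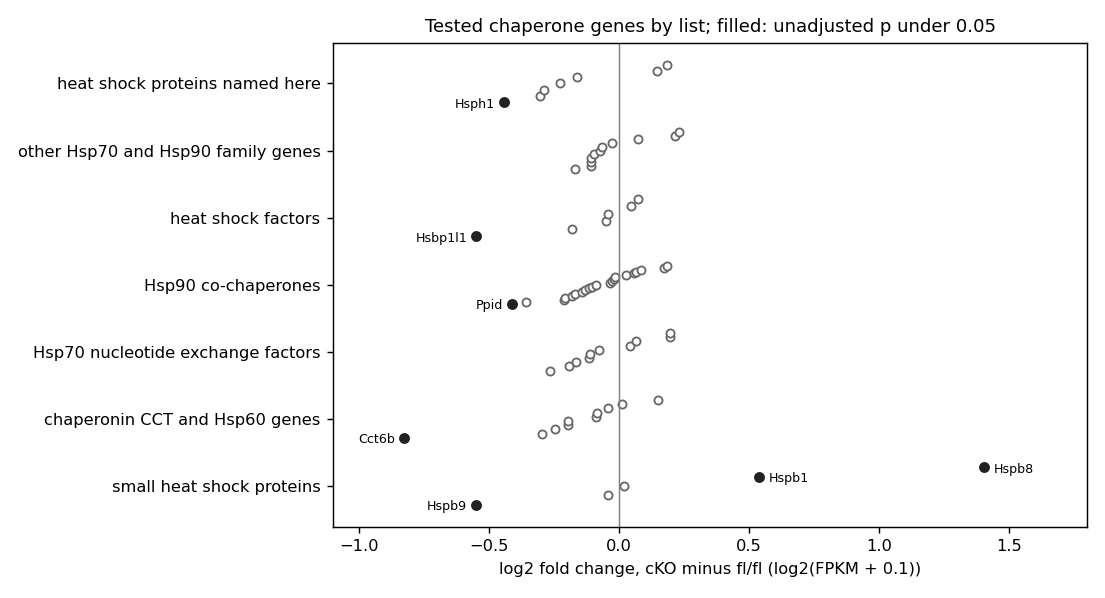
Log2 fold change (cKO minus fl/fl, horizontal axis) of each tested chaperone gene by list, with the 7 tested heat shock protein genes in the top row. Filled points have an unadjusted p below 0.05 (limma) and are named, and none has an adjusted p below 0.05.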

How the data were processed

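The authors sequenced RNA as paired ends and deposited FPKM values with a gene length for 54532 genes, and per-library copies that were equal to the table in 8 of 8 files. Per the labels, a column kit and an mRNA library kit were used, where the study's methods name Trizol, and the processing notes name GRCm38 and mm10. The aligner, the counting tool and the use of strand are not given in the sources used here. Gene positions matched GENCODE vM21 on GRCm38 for all 8 genes. The tamoxifen days printed are those of the labels, and the study's methods give slightly earlier times. Dividing FPKM by the worth of 1 fragment gave whole fragments for 100% of nonzero values (tolerance 0.02). No value column was left out, so every library of the table was used.

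The main test was limma 3.58.1 in R 4.3.3 (a mean trend, no covariates, 4 libraries against 4) on log2(FPKM + 0.1), over protein-coding genes whose mean FPKM exceeded 1 in each group. Fold changes on this scale understate those of low genes. No count model was the main test, since the values are FPKM. The procedure was checked on simulated fragments, with changes larger than any of the 8 genes had and without an outlying library. That check does not cover differences of the sizes reported here. Named genes were the 8 heat shock protein genes, 22 fixed chaperone genes, any list gene past the threshold, the 5 genes most like Hspa2, and Spdya. The members and lists were chosen with earlier results of these data known. No 2 libraries of a group agreed within sampling noise. Where the labels do not separate litters, p-values measure the spread between these mice only. Ratios and shares are descriptions without a test. Figures were drawn with matplotlib 3.10.9. The alternatives were 11 other settings and each of the 8 libraries left out in turn.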

Additional observations from a re-analysis of the deposited data

Results flagged for a closer look

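One library lay far from the other 3 of its group for 1 of the heat shock protein genes, Hspa4, which had 67.3 FPKM in cKO replicate 1 and 59.1 to 59.7 FPKM in the other cKO libraries. The same held for 4 of the fixed chaperone genes. Hspa9 had 96.9 FPKM in cKO replicate 1 against 83.7 to 85.5 FPKM, Hspa14 had 26.5 FPKM in control replicate 1 against 17.9 to 18.8 FPKM, Hspb1 had 159.6 FPKM in control replicate 1 against 84.3 to 95.7 FPKM, and Stip1 had 84.1 FPKM in control replicate 3 against 64.1 to 66.9 FPKM. These 5 came from 70 groups of 4 libraries examined, of which chance alone would single out about 1 in 20, or 3.5. Replicate 1 of either group held 4 of the 5.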

How the results depend on the processing

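No heat shock protein gene was called under any of the 19 alternatives, and the log2 fold changes of the 7 tested genes kept their sign in all of them, among which the other pseudocounts, filters and scalings, the replicate block and the libraries left out in turn. Lowest and highest values were -0.47 and -0.21 for Hspa2, -0.38 and -0.21 for Hspa4l, -0.22 and -0.03 for Hspa4, -0.53 and -0.29 for Hsph1, -0.33 and -0.14 for Hsp90aa1, 0.01 and 0.32 for Hspa8, and 0.12 and 0.22 for Hsp90ab1. Hspa8 reached 0.01 and Hspa4 -0.03 without control replicate 1.

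The number of the 7 genes with an unadjusted p below 0.05, 1 as reported, was 3 with array weights (Hspa2, Hspa4l and Hsph1), 2 with voom on recovered fragments and 2 with the replicate block (Hspa4l and Hsph1 in both), and 1 to 2 when libraries were left out in turn. Over all tested genes, 2 were called as reported. This count was 0 without a filter, 0 where the mean FPKM had to exceed 5 in each group, 4 with all biotypes, 1 with median centring, 1 after rescaling to TPM, 57 with array weights, 0 with the replicate block and 0 to 3 with 1 library left out. Among the chaperone lists 1 gene, Hspb8, was called with array weights, and none in the other 18 alternatives. The causes were not tested. Deviations of libraries with the same number correlated at 0.288, 0.131, 0.0757 and 0.406, all positive and below 0.1 in 1 of the 4. Without such values for libraries of different numbers, they do not settle whether the numbers mark pairs. Replicate numbers were not used as pairs in the main fit. The block changed no call of a heat shock protein gene. It lowered the SE of Hspa2 from 0.21 to 0.16 and of Hspa4l from 0.13 to 0.11, while that of Hsp90ab1 stayed at 0.14.

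Of all tested genes with an unadjusted p below 0.05, 54.1% were higher in cKO testes, 71.6% after rescaling to TPM and 62.1% without control replicate 1. The differences in within-library ratios were recomputed under 10 of the alternatives, the 2 scalings and the 8 libraries left out. They moved by less than 1 SD in each, which was bound to hold. A scaling changes such a ratio only through the pseudocount, and leaving out 1 of 4 libraries cannot move a group mean by 1 SD. No conclusion is drawn from this. The difference in the Hspa1l to Hspa8 ratio ran from -0.36 to 0.04. SDs within a group reached 25.2% of the mean among the 7 tested genes, and the bounds of their 95% intervals ran from -0.78 to 0.60 on the log2 scale, so differences within these bounds were not resolved. Of 21 tested chaperone genes fixed by name, 5 (Hspa14, Hsf1, Hsf2, Fkbp4 and Hspbp1) changed sign without control replicate 1.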
